A study of Bombyx mori with 12 samples.

Results

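The larval salivary gland of the silkworm Bombyx mori was compared with 6 other tissues of the same stage, day 2 of the 4th instar: prothoracic gland, brain, fat body, midgut, epidermis and Malpighian tubule. The 7 arrays were chosen by their labels, as the single arrays of that stage, out of 12 in the series, and all 7 were used. All came from mulberry-fed larvae of a commercial hybrid, Kinsyu x Showa, with no treatment. The 5 arrays outside the comparison held testis, ovary and the CC-CA, which are the corpora cardiaca and corpora allata, glands behind the brain that release neurohormones and make juvenile hormone. The CC-CA came from day 2 of the 4th instar, in 2 independent batches, and from day 4 of the 5th. Both gonads came from larvae that had been wandering for 3 days, at day 10 of the 5th instar. The labels do not give the sex, the number of animals pooled, or which gland of the head and thorax was dissected as the salivary gland.

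In caterpillars the labial glands make silk, and saliva for feeding comes largely from other head glands, among them the mandibular glands. Glands of ectodermal origin empty through ducts lined with cuticle, the chitin and protein layer that also covers the epidermis. Cuticular proteins of the RR classes carry the Rebers-Riddiford sequence, which binds chitin: the RR-1 class is known mainly from soft cuticle and the RR-2 class from hard cuticle. Juvenile hormone binding proteins are secreted proteins, of which the haemolymph member carries juvenile hormone through the blood; the ligands of many relatives are not known.

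Each tissue had 1 array, so no value below has a replicate error and no difference was tested; the tissues were compared by size only. Levels are log2 of the processed signal relative to the 75th percentile of the array, so 0 is that percentile, and a level is compared between tissues for the same probe only. Each array carried 43803 gene spots for 42564 probes, and 34827 probes were well above background on at least 1 of the 7 arrays and were used. On the salivary gland array 27315 of these were well above background. Its 75th percentile signal of 3282 lay within the 1402 to 4251 of the other 6 arrays, and 64.7% of its spots were well above background, against 60.4% to 69.4%. As a scale for error from another tissue, the 2 independent 4th instar CC-CA arrays differed by a median of 0.40 and by more than 1.26 for 5% of probes, and 1.79% of 34815 probes were 4-fold or more apart. Spots of the same probe within the salivary gland array had a median SD of 0.04 over 978 probes. A difference of at least log2 2, which is 4-fold, was used to describe a probe as higher or lower. The salivary gland shared its slide with midgut; for the 5 other tissues slide and tissue cannot be told apart. In whole tissues, fewer cells of a type and less RNA per cell cannot be told apart either.

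The label was checked against genes of the other tissues. Both salivary gland markers, BmorCPR33 and jhbp-brp1649, were highest on the salivary gland array, as values below give; they were proposed with these data known. None of 11 marker genes of brain, fat body, midgut, epidermis and Malpighian tubule was well above background there. These too were chosen with earlier results of these data known, so they are a limited check of the label. Prothoracic gland had no marker. Levels of the 11 lay between -8.73 and -6.97 in salivary gland and between -4.34 and 6.47 in their own tissue. The brain peptide corazonin was at -8.31 in salivary gland and 3.22 in brain, and the epidermal cuticle gene BmorCPR40 at -8.54 and 5.57 in epidermis. AKH-1 and AKH-2, peptide hormones of the corpora cardiaca, were not well above background either, at -7.97 and -8.67. The epidermal markers do not stand for all cuticular genes. Of 149 cuticular genes measured, 51 were well above background in salivary gland, and epidermis was the highest tissue for 34 of these. Nor do the brain markers stand for all neuropeptide genes. Of 33 measured, 4 were well above background in salivary gland, among them CHH_peptide, at -1.08 there and 3.38 in brain. The array names no silk gland gene, so the presence of silk gland cells was not tested.

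Against each single tissue, fewer probes were higher than lower in salivary gland at the 4-fold limit. Against prothoracic gland 2659 probes were higher (7.63% of those used) and 3120 lower (8.96%), the smallest number apart among the 6 comparisons. Against brain 3431 were higher (9.85%) and 4874 lower (14.0%), and against fat body 3145 were higher (9.03%) and 4644 lower (13.3%). Against midgut 3930 were higher (11.3%) and 4932 lower (14.2%), on the same slide. Against epidermis 2740 were higher (7.87%) and 5627 lower (16.2%), the most uneven split. Against Malpighian tubule 3225 were higher (9.26%) and 4142 lower (11.9%). Across probes of these single arrays, which are not replicates, Pearson's r with salivary gland was 0.886 for prothoracic gland, 0.840 for Malpighian tubule, 0.803 for epidermis, 0.792 for brain, 0.785 for fat body and 0.774 for midgut.

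These splits depended on how the arrays were scaled. The share of higher probes among those apart was 46.0% against prothoracic gland, 41.3% against brain, 40.4% against fat body, 44.3% against midgut, 32.7% against epidermis and 43.8% against Malpighian tubule. With the deposited value table, whose centring is unknown, the same shares were 58.5%, 69.7%, 68.9%, 67.2%, 65.2% and 61.6%, so the direction of all 6 splits turned. With quantile normalisation the share rose to 51.5% for fat body and 46.4% for epidermis, and with the percentile taken over probes detected on all 7 arrays it fell to 27.3% for brain and 22.7% for epidermis. The median over all probes of salivary gland minus the median of the 6 tissues was -0.21 in the scaling used here, 0.59 in the value table, -0.46 with that percentile, 0.06 with quantile normalisation and -0.26 with normexp background correction. Changes smaller than these shifts have no settled direction.

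**Figure D1:**
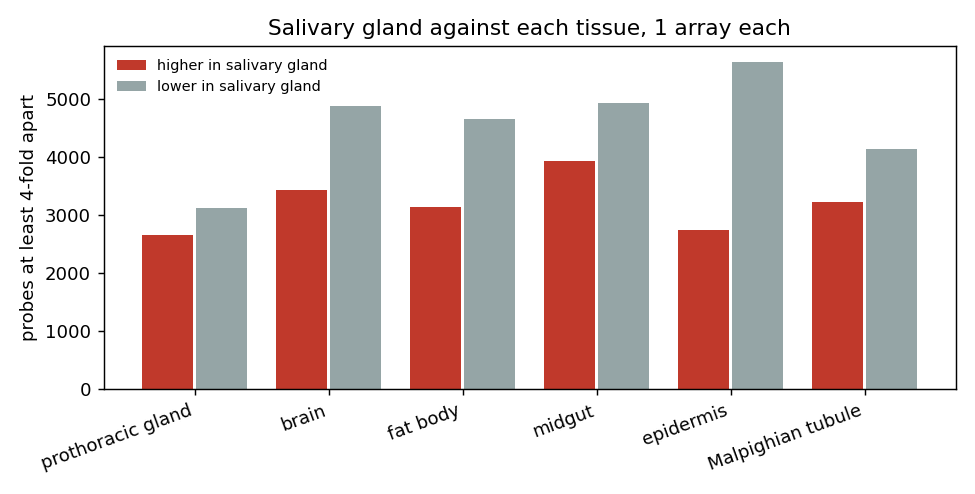
Bars give the number of probes at least 4-fold higher (red) or lower (grey) in salivary gland than in each of the 6 tissues, from 1 array a tissue. In all 6 pairs the grey bar is taller, most of all against epidermis (2740 higher, 5627 lower); with the deposited value table the taller bar is the red one in all 6.

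Transcripts that stood at least 4-fold above every one of the 6 tissues made up 570 probes of 432 sequences, 1.64% of the probes used. They are called salivary-high below. The count was 1372 with the value table and 894 without epidermis. The same rule, in the scaling used here, gave 1500 probes for epidermis, 1448 for fat body, 1252 for brain, 774 for midgut, 461 for Malpighian tubule and 261 for prothoracic gland. The median margin over the next tissue was 2.56 on the log2 scale; 204 probes had a margin of at least 3, 74 of at least 5 and 12 of at least 10. Of the 570, 134 (23.5%) were well above background in salivary gland alone, so they entered only through the array on which they are high. Of 167 sequences with several probes, 132 (79.0%) had all of them salivary-high. The next highest tissue was epidermis for 162 probes (28.4%), fat body for 155 (27.2%), prothoracic gland for 95 (16.7%), Malpighian tubule for 80 (14.0%), brain for 49 (8.60%) and midgut for 29 (5.09%). Over all probes used, the highest of the 6 tissues was epidermis for 13.7%, fat body for 18.9%, prothoracic gland for 14.5%, Malpighian tubule for 15.6%, brain for 22.1% and midgut for 15.2%.

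Named genes formed a small part of this set, 26 of the 570 probes. The array names 346 genes, of which 251 were measurable here and 91 were well above background in salivary gland. On their representative probe, the one brightest over the 7 arrays, 11 of the 251 were salivary-high: 7 cuticular protein genes, 2 juvenile hormone binding protein genes, the receptor DpHR and JHE-r1. No named gene was at least 4-fold lower than in all 6 tissues on that probe. Just inside the limit were BmorCPH5, with a margin of 2.39, and JHE-r1, with 2.14; just outside were BmorCPH27 with 1.53 and BmorCPR19 with 1.48.

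**Figure D2:**
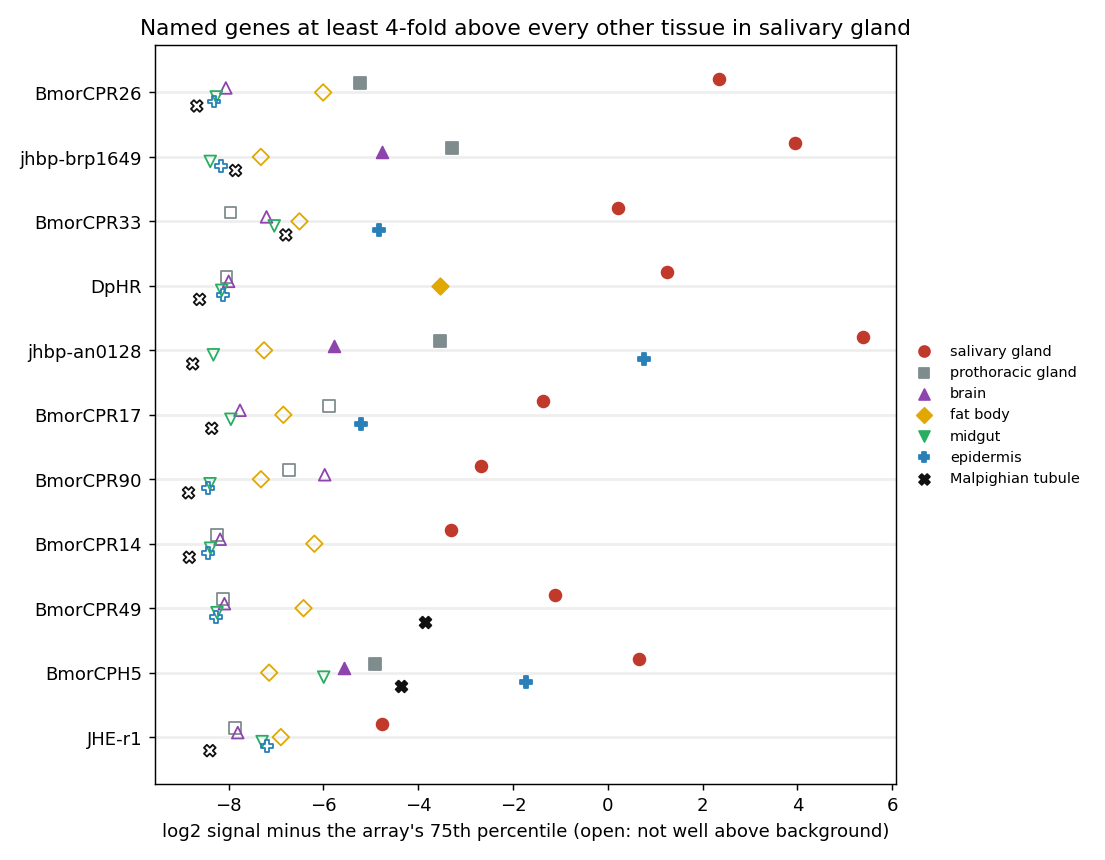
Each row is a named gene at least 4-fold above every other tissue in salivary gland, ordered by margin, and each symbol is the level on 1 array (log2 signal minus the 75th percentile of the array, filled where well above background). Salivary gland (red circles) is rightmost in all 11 rows; in the top row, BmorCPR26, it is at 2.35 and the next tissue, prothoracic gland, at -5.22.

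Of 149 measured cuticular protein genes 7 were salivary-high, and in 4 of these 7 epidermis was not well above background. Over all probes used 1.64% were salivary-high. Over all named genes it was 11 of 251 (4.38%), a set that includes the 149 cuticular genes. BmorCPR26, an RR-1 gene, was at 2.35 in salivary gland, -5.22 in prothoracic gland, -8.06 in brain, -6.01 in fat body, -8.26 in midgut, -8.31 in epidermis and -8.67 in Malpighian tubule. Salivary gland and prothoracic gland were the tissues well above background, and salivary gland was 190-fold the higher. Both probes of the gene were salivary-high, with margins of 7.57 and 9.56. The signal in prothoracic gland, and with it the 190-fold, rests on 1 of them; on the other, at 2.69 in salivary gland, none of the 6 tissues was well above background.

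BmorCPR33, another RR-1 gene and a proposed marker, was at 0.22 in salivary gland, -7.96 in prothoracic gland, -7.20 in brain, -6.51 in fat body, -7.04 in midgut, -4.83 in epidermis and -6.79 in Malpighian tubule. On this probe only salivary gland and epidermis were well above background, and salivary gland was 33.1-fold the higher. On the second probe, at -1.06 in salivary gland, epidermis was not well above background either, and the margin was 5.83. BmorCPR17, also RR-1, was at -1.37 in salivary gland and -5.22 in epidermis, a 14.4-fold difference, with the other tissues not well above background, between -8.36 and -5.88. BmorCPR49, RR-1 as well, was at -1.12 in salivary gland and -3.85 in Malpighian tubule, 6.64-fold apart, and the 5 other tissues, epidermis at -8.27 included, were not well above background. The signal in Malpighian tubule rests on 1 of the 2 probes: the other was at -0.83 in salivary gland and not well above background elsewhere, with a margin of 6.16.

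On their representative probes BmorCPR14 (RR-1) and BmorCPR90 (RR-2) were well above background in salivary gland and in none of the 6 other tissues. BmorCPR14 was at -3.31 against -8.83 to -6.19 elsewhere, at least 6.24-fold higher. Its second probe was not well above background in any of the 7 tissues, salivary gland at -8.64 included, so its probes disagree. BmorCPR90 was at -2.67 against -8.85 to -5.97, at least 9.74-fold higher. In both cases fat body, the array with the highest detection limit, set the bound. BmorCPH5, a gene of the group named hypothetical cuticular proteins, was the salivary-high cuticular gene most widely detected: it was at 0.67 in salivary gland, -1.73 in epidermis, -4.37 in Malpighian tubule, -4.91 in prothoracic gland, -5.57 in brain, and not well above background in midgut and fat body. Salivary gland was 5.26-fold above epidermis on this probe and less than 4-fold on its second probe, where the margin was 1.29.

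Most cuticular genes had their highest level in epidermis, and a minority were detected in salivary gland. Of 149 measured, 107 were well above background in epidermis and 51 in salivary gland, where 78.4% of all probes used were. The 51 lay near the 55 in brain, 54 in fat body and 50 in prothoracic gland, with 35 in midgut and 32 in Malpighian tubule. The highest tissue was epidermis for 88 and salivary gland for 12 (over all probes, 17.2% were highest in salivary gland). In epidermis 92 were at least 4-fold above salivary gland, and in salivary gland 11 were at least 4-fold above epidermis, against 16.2% and 7.87% over all probes. Leaving epidermis aside, 10 cuticular genes were at least 4-fold above the 5 other tissues, where 2.57% of all probes were: the 7 named above, BmorCPR19, BmorCPR148 and BmorCPR21. BmorCPR19 was at 0.91 in salivary gland and -0.57 in epidermis. BmorCPR148, an RR-2 gene, was at 2.73 in salivary gland and 6.49 in epidermis, and at most -1.40 elsewhere. BmorCPR21 was at -1.99 in salivary gland and 1.80 in epidermis.

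The classes differed in how many members were detected, in salivary gland and in other tissues. Of 56 RR-1 genes on the array 43 were measured. In salivary gland 25 (58.1%) were well above background, where 78.4% of all probes used were. The number was 36 in epidermis, 21 in prothoracic gland, 16 in brain, 14 in fat body, 14 in midgut and 11 in Malpighian tubule. Of the 43, 5 (11.6%) were salivary-high, beside 1.64% of all probes and 4.38% of all named genes. Against the median of the 6 tissues 10 were at least 4-fold above and 3 at least 4-fold below (7.32% and 9.55% of all probes). Besides the genes above, BmorCPR51 was at -2.48 in salivary gland against -0.57 in midgut, its highest tissue. BmorCPR46 was at -1.34 in salivary gland and 7.66 in epidermis, 514-fold apart, and BmorCPR3 at -4.83 and 7.40, 4832-fold apart. BmorCPR37 was not well above background in salivary gland and was at -1.57 in epidermis, at least 49.9-fold higher there.

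Of 92 RR-2 genes 46 were measured, and 7 (15.2%) were well above background in salivary gland. The number was 24 in epidermis, 10 in prothoracic gland, 13 in brain, 13 in fat body, 11 in midgut and 11 in Malpighian tubule. Of the 46, 1 (2.17%) was salivary-high, beside 1.64% of all probes. Against the median of the 6 tissues 3 (6.52%) were at least 4-fold above and 4 (8.70%) below, near the 7.32% and 9.55% of all probes. The 4 became 2 with the floor and 1 with normexp, the value table or quantile normalisation. BmorCPR144 was at -4.78 in salivary gland and not well above background elsewhere, which put it at least 2.26-fold higher. BmorCPR109 was at -5.98, too near the detection limit for a fold. BmorCPR127, BmorCPR59, BmorCPR102 and BmorCPR70 were not well above background in salivary gland. Epidermis held the first of these at 6.57, at least 14053-fold higher, the second at 0.20, at least 169.9-fold higher, and the third at -5.34, at least 3.66-fold higher. BmorCPR70 was highest in prothoracic gland, at -3.92, at least 9.80-fold above salivary gland.

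The glycine-rich genes were 29 on the array, all measured, with 8 well above background in salivary gland, none salivary-high, and none highest there. Against the median of the 6 tissues 1 (3.45%) was at least 4-fold higher and 2 (6.90%) lower, beside 7.32% and 9.55% of all probes. BmorCPG9 was at -4.43 in salivary gland, -2.97 in fat body and -4.45 in brain, with 4 tissues not well above background. BmorCPG20 and BmorCPG2 were near the detection limit in salivary gland, at -6.17 and -6.04. BmorCPG10 was at -2.22 in salivary gland and 3.91 in epidermis, 69.9-fold apart. The 4 members furthest below were not well above background in salivary gland: BmorCPG5 and BmorCPG21 stood at 5.98 and 4.54 in epidermis, BmorCPG18 at 3.31 in fat body and BmorCPG14 at -0.18 in epidermis.

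Of the 34 hypothetical cuticular protein genes 23 were measured and 10 were well above background in salivary gland. Of the 23, 1 (4.35%) was salivary-high, beside 1.64% of all probes. Against the median of the 6 tissues 3 (13.0%) were at least 4-fold above and 5 (21.7%) below, beside 7.32% and 9.55% of all probes. The 5 became 1 with the floor, normexp, the value table or quantile normalisation. BmorCPH27 was at 1.23 in salivary gland and -0.30 in fat body, 2.89-fold apart, and was detected in all 7 tissues. BmorCPH21 was at -5.56, at least 1.31-fold above the other tissues, none of which was well above background. BmorCPH28 was at -3.84 in salivary gland and 0.98 in epidermis. BmorCPH4 was at -5.87 in salivary gland and 0.82 in epidermis, 103-fold apart, and BmorCPH6, BmorCPH10 and BmorCPH14 were not well above background in salivary gland. The Tweedle and CPF group, named for 2 further families of cuticle protein, gave 8 measured genes of 9, of which BmorCPFL1 alone was well above background in salivary gland, at -5.58 against 7.05 in epidermis, 6376-fold apart. BmorCPT1, BmorCPFL3 and BmorCPFL4 had their highest levels in epidermis, BmorCPT2 and BmorCPT3 in fat body, BmorCPFL2 in midgut and BmorCPF in Malpighian tubule.

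The median difference from the median of the 6 tissues lay between -0.58 and -0.55 for each of the 5 cuticular classes, beside -0.21 for all probes, and turned positive with the value table and with quantile normalisation (0.01 to 0.17), where the median of all probes shifted upward as well. Most members were dim in most tissues, and their differences there are differences of background.

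The order of genes in the RefSeq gene table, used for neighbours only, placed 2 of the salivary-high genes inside a run of cuticular genes from BmorCPR46 to BmorCPR23. The run was taken after the values were seen. Of 34 positions 22 were measured cuticular genes, 20 of them well above background in epidermis and 13 in salivary gland. Epidermis was the highest tissue for 19 and salivary gland for 2, BmorCPR33 and BmorCPR26. BmorCPR33 lies between BmorCPR34, which was at 0.15 in salivary gland and 4.23 in epidermis, and BmorCPR32, which was not well above background in salivary gland and was at 5.62 in epidermis. BmorCPR26 lies beside BmorCPR27, which was at -0.55 in salivary gland and 7.09 in epidermis, and next to that is BmorCPR28, at -0.07 and 7.61.

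**Figure D3:**
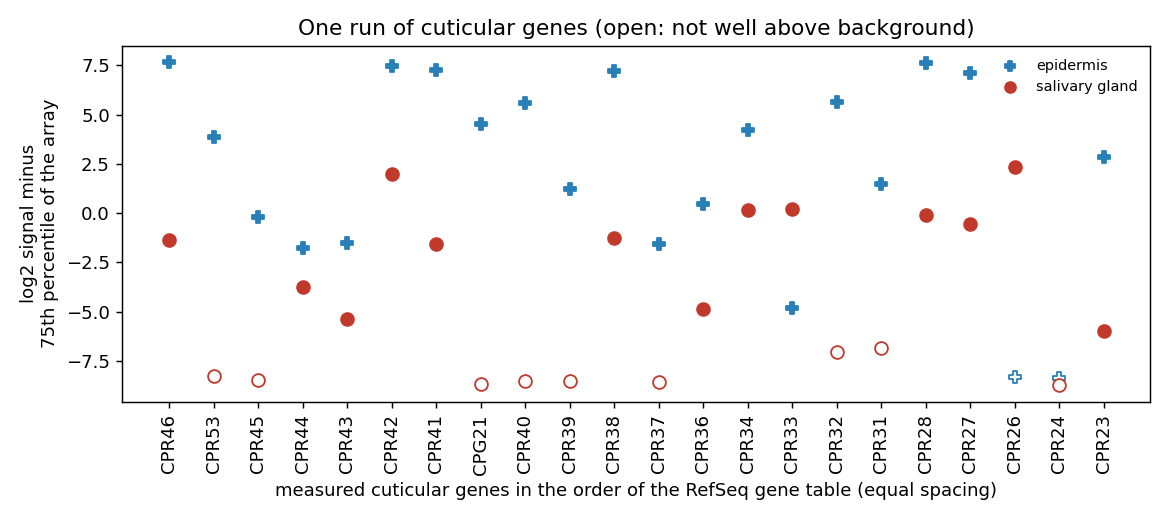
The 22 measured cuticular genes of the run stand in the order of the RefSeq gene table, at equal spacing, with the level on the epidermis array (blue) and the salivary gland array (red), as log2 signal minus the 75th percentile of the array and filled where well above background. Salivary gland lies above epidermis at BmorCPR33 (0.22 against -4.83) and BmorCPR26 (2.35 against -8.31).

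Juvenile hormone binding protein genes were the group with the largest shift towards the gland. Of 9 on the array 8 were measured and 7 (87.5%) were well above background in salivary gland, the largest number among the 7 tissues. Of all probes used 78.4% were well above background there. Of the 8, 5 were at least 4-fold above the median of the 6 tissues and none at least 4-fold below it (7.32% and 9.55% of all probes); with the floor or with normexp the 5 became 4. Of these, jhbp-ce0330 was represented by a probe well above background in salivary gland alone, and its probes disagree. Their median difference from that median was 3.27, and it stayed positive under the scaling and background alternatives, between 1.90 and 4.10. On the representative probes salivary gland was the highest tissue for 3 members, jhbp-ce0330 among them, and epidermis for 3.

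The transcript jhbp-brp1649, a proposed marker, was at 3.94 in salivary gland, -3.30 in prothoracic gland, -4.76 in brain, -7.32 in fat body, -8.39 in midgut, -8.16 in epidermis and -7.85 in Malpighian tubule. The last 4 were not well above background, and salivary gland was 151-fold above prothoracic gland on this probe. All 4 probes of the gene were salivary-high, with margins from 7.24 to 10.22. Prothoracic gland was well above background on this probe alone, and on another Malpighian tubule was so, at -5.15. The transcript jhbp-an0128 was at 5.38 in salivary gland, -3.54 in prothoracic gland, -5.77 in brain, -7.25 in fat body, -8.32 in midgut, 0.77 in epidermis and -8.76 in Malpighian tubule. Salivary gland was 24.4-fold above epidermis, the next tissue, and both probes agreed on the order with margins of 4.61 and 4.89.

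Another pair of members was shared with epidermis, where they were higher. The transcript jhbp-brp2095 was at 1.68 in salivary gland, 4.83 in epidermis, -3.47 in prothoracic gland, -3.67 in brain, -4.33 in fat body, -5.29 in midgut and -5.56 in Malpighian tubule. Epidermis was 8.89-fold above salivary gland, which in turn was over 4-fold above each of the 5 others. The transcript jhbp-an147 was at -0.66 in salivary gland, 2.58 in epidermis, -2.84 in prothoracic gland, -4.75 in brain, -4.81 in fat body, -5.66 in midgut and -5.19 in Malpighian tubule, with epidermis 9.41-fold above salivary gland.

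The 4 remaining members were even across tissues, not well above background in the gland or near the detection limit there. The transcript jhbp-wds30639 was detected evenly, at 2.67 in salivary gland and 3.21 to 3.93 in the 6 others, so that salivary gland was lowest, 2.40-fold under midgut. The transcript jhbp-an0921 was an epidermal one, at 3.53 there and -2.09 in Malpighian tubule, and was not well above background in salivary gland, at least 1710-fold lower than epidermis. On its representative probe jhbp-ce0330 was at -5.48 in salivary gland and not well above background elsewhere, at least 1.38-fold higher. Over its 3 measured probes the margin over the highest other tissue ran from -4.46 to 0.96, so its probes disagree. The transcript jhbp-e96h0303 was at -5.73 in salivary gland and -4.59 in fat body on its representative probe; 2 of its other probes were salivary-high, with levels of -5.24 and -4.90 against no tissue well above background, so its probes disagree.

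**Figure D4:**
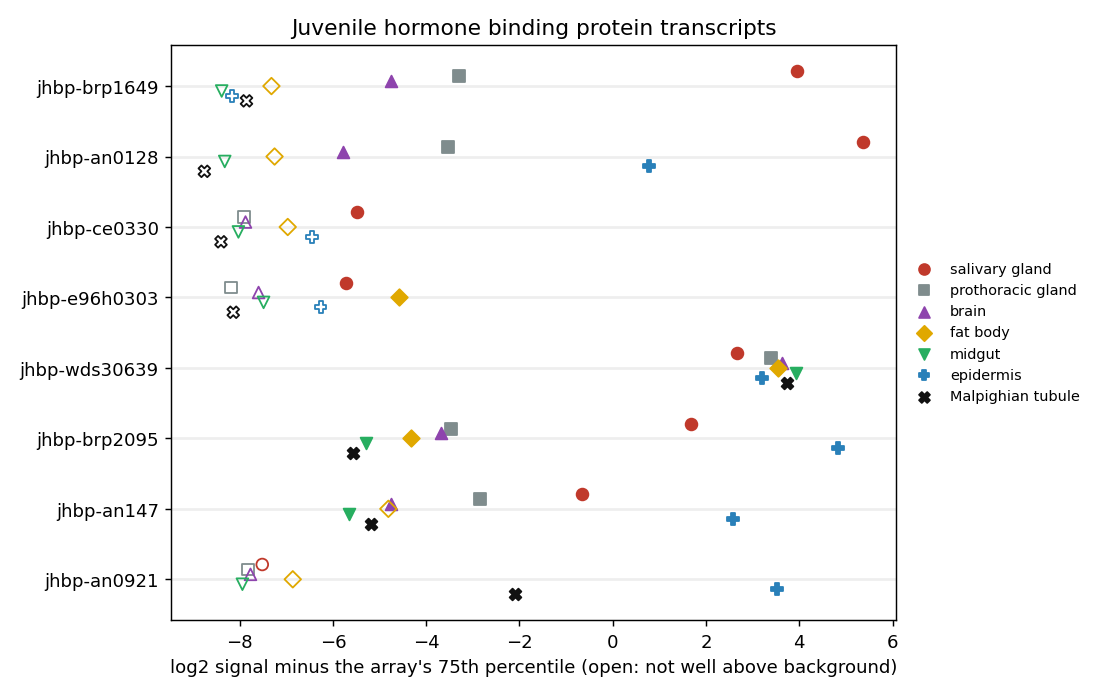
Each row is the representative probe of a measured juvenile hormone binding protein gene, ordered by the margin of salivary gland over the highest other tissue. Each symbol is 1 array (log2 signal minus the 75th percentile of the array, filled where well above background). Salivary gland (red circles) is rightmost for jhbp-brp1649 (3.94), jhbp-an0128 (5.38) and jhbp-ce0330 (-5.48), and epidermis (blue) is rightmost for jhbp-brp2095, jhbp-an147 and jhbp-an0921.

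The list of juvenile hormone degradation, made by the array names JHE and JHEH, was not raised as a group. Esterases split the methyl ester of the hormone and epoxide hydrolases open its epoxide. The names do not show that the JHE-r members act on juvenile hormone. All 12 genes of the list were measured and 7 were well above background in salivary gland. Against the median of the 6 tissues 1 (8.33%) was at least 4-fold above and 2 (16.7%) below, beside 7.32% and 9.55% of all probes. The median difference was -1.10, beside -0.21 for all probes, and with quantile normalisation it was -0.35, beside 0.06. JHE-r1 was at -4.75 in salivary gland and not well above background elsewhere, between -8.40 and -6.90. Its difference of 2.14 from fat body became at least 2.30-fold once the detection limit of the fat body array was used, so it does not pass 4-fold as a bound. JHE itself, the juvenile hormone esterase, was at -5.29 in salivary gland and 0.21 in prothoracic gland, 45.1-fold apart. JHEH0 was at -1.04 in salivary gland, the lowest of the 7 tissues, and 3.70 in fat body, 26.7-fold apart. JHE-r4A was at 0.78 in salivary gland, within -0.20 to 1.92 of the others, and JHE-r5AL at -3.66, against 1.84 in midgut. JHE-r2, JHE-r3 and JHEH1 were not well above background in salivary gland, and JHEH1 was at -2.31 in prothoracic gland.

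Of 5 genes of juvenile hormone synthesis and response, 4 were measured, all of them well above background in salivary gland, and none was 4-fold from the median of the 6 tissues. BmFKBP39, which encodes an FK506-binding protein, was highest in salivary gland at 2.53, with prothoracic gland at 2.02. BmKr-h1a, from the gene of a transcription factor that juvenile hormone induces, was at -2.09 against -2.86 to -1.40. Of the farnesyltransferase transcripts that the array names A and B, the former was at 0.53 in salivary gland and highest in Malpighian tubule at 2.24, and the latter was at -2.10 and highest in epidermis at -0.15.

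Among receptors, DpHR stood apart. It was at 1.25 in salivary gland, -3.54 in fat body, -8.04 in prothoracic gland, -8.00 in brain, -8.15 in midgut, -8.12 in epidermis and -8.61 in Malpighian tubule. On this probe salivary gland and fat body were the tissues well above background, 27.6-fold apart. All 4 probes were salivary-high, with margins from 4.79 to 8.66, and on the 3 others no other tissue was well above background. DpHR belongs to the BNGR-B and other hormone receptors, of which 14 of 16 were measured and 5 were well above background in salivary gland. In that list 2 (14.3%) were at least 4-fold above the median of the 6 tissues and 5 (35.7%) below it, beside 7.32% and 9.55% of all probes. The median difference was -1.30, beside -0.21 for all probes, and with quantile normalisation it was -0.58, beside 0.06. The 5 became 3 with the floor, the value table or quantile normalisation, 6 with the percentile over detected probes and 1 with normexp. BAR was at -2.97 in salivary gland and -3.26 in midgut on its representative probe. Over its 4 measured probes the margin over the highest other tissue ran from -5.31 to 0.29, so its probes disagree. BNGR-B3 was at -1.13 in salivary gland against 2.09 in midgut. BMSR, the myosuppressin receptor, was at -5.52 in salivary gland and -0.19 in prothoracic gland, 40.3-fold apart. BNGR-B2, SPR, PBANR and DHR were not well above background in salivary gland. DHR, which was at 4.66 in Malpighian tubule, was at least 3752-fold lower in salivary gland, and PBANR, the receptor of the pheromone biosynthesis activating neuropeptide, was at least 26.5-fold below epidermis.

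The BNGR-A receptors, G protein-coupled receptors of neuropeptides, gave 26 measured genes of 36, of which 10 were well above background in salivary gland. Against the median of the 6 tissues 1 (3.85%) was at least 4-fold higher and 6 (23.1%) lower, beside 7.32% and 9.55% of all probes. The median difference was -1.28, beside -0.21 for all probes, and with quantile normalisation it was -0.50, beside 0.06. The 6 became 4 with a floor, 2 with the value table or quantile normalisation, 1 with normexp and 9 with the percentile over detected probes. BNGR-A5 was highest in salivary gland, at 0.34, with -0.69 in midgut, -0.71 in brain, -1.53 in Malpighian tubule, -1.91 in epidermis, -2.17 in fat body and -2.48 in prothoracic gland; it was detected in all 7 tissues and was 2.05-fold above midgut. BNGR-A14 was at -0.05, BNGR-A2 at -5.55 and BNGR-A11 at -5.75 in salivary gland, all within 4-fold of their highest tissue. BNGR-A4 was at -5.73 in salivary gland and -0.42 in fat body, 39.7-fold apart, and BNGR-A23 at -6.15, against -2.97 in brain. BNGR-A3 and BNGR-A17 were not well above background in salivary gland. For BNGR-A10 the probes disagreed: the brightest was at -0.67 in salivary gland and 1.72 in brain, and another was at -8.63 in salivary gland, below all 6 tissues, of which prothoracic gland was lowest at -3.90. Its remaining probes, at -8.73 and -7.93, were not well above background in salivary gland or fat body and were so in the other tissues. The brightest probe was thus the exception.

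Most neuropeptide and hormone genes had their highest level in brain. Of 42 on the array 33 were measured; brain was the highest tissue for 28 and salivary gland for none, and 4 were well above background in salivary gland. Against the median of the 6 tissues 2 (6.06%) were at least 4-fold higher and 10 (30.3%) lower, beside 7.32% and 9.55% of all probes. The median difference was -1.28, beside -0.21 for all probes, and with quantile normalisation it was -0.61, beside 0.06. Most members were dim in most tissues other than brain, and their differences there are differences of background. The count of 10 became 4 with a floor at the detection limit, 3 with quantile normalisation, 2 with the value table, 11 with the percentile over detected probes and 0 with normexp. CHH_peptide was at -1.08 in salivary gland and 3.38 in brain, and at most -2.53 in the 5 other tissues. NPF2 was at -5.04 in salivary gland and -2.37 in brain, with the 5 other tissues not well above background. Both were chosen by their difference from the median. Not well above background in salivary gland were polyscystronic_peptide, IMFamide, ITG-containing_peptide, Myosuppressin, diuretic_hormone-2_specific_region and diuretic_hormone_common_region, among which Myosuppressin was at 2.96 in brain, at least 1151-fold higher.

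Probes lower in salivary gland than in all 6 tissues by 4-fold numbered 276, of 211 sequences, or 0.792% of those used. In 143 of them the salivary gland signal was not well above background. The same rule gave 225 probes for midgut, 208 for brain, 84 for fat body, 73 for Malpighian tubule, 44 for prothoracic gland and 25 for epidermis. Their median margin was 2.73 and the largest 7.32. None of these sequences carries a gene name except BNGR-A10. The sequence with the largest margin, fcaL-P51_pT_D11_RevCom, was at -8.54 in salivary gland and between -1.23 and 0.45 in the 6 tissues, and fcaL26e21r_RevCom was at -8.59 against -1.40 to 3.20. On the gonad arrays the former was also low in testis, at -9.55, and was at -0.64 in ovary. The latter was at -0.26 in testis and -1.56 in ovary.

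Most salivary-high probes also belong to sequences without a gene name. Clones with caL in their name made up 52.6% of them (51.9% of the probes used) and gene models named BGIBMGA 28.9% (29.3%). Among the salivary-low probes the caL clones made up 63.0% and the gene models 17.4%. The sequence with the largest margin of all, fcaL-P50_pT_C02_RevCom, was at 7.13 in salivary gland, and no other tissue of the 6 was well above background, with levels from -8.42 to -6.98. The next, fcaL-P53_pT_L16_RevCom, was at 7.28 in salivary gland against -8.47 to -5.82.

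The 5 arrays outside the comparison gave levels of the salivary-high probes in other tissues and stages. Over the 570 probes the median level was 1.67 in salivary gland, -2.29 in epidermis, -3.41 in prothoracic gland and between -4.66 and -4.43 in brain, fat body, midgut and Malpighian tubule. It was -1.36 and -1.06 on the 4th instar CC-CA arrays, -1.77 on the 5th instar CC-CA array, -2.80 in testis and -2.88 in ovary. Over all probes used the medians on these 5 arrays, in the same order, were -1.65, -1.70, -1.83, -1.84 and -1.68. The choice of probes itself set the levels high in salivary gland and low in the 6 tissues. Of the 570, 481 (84.4%) and 497 (87.2%) were well above background on the 4th instar CC-CA arrays, against 83.8% and 87.7% of all probes used.

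Within the CC-CA, the salivary-high probes were more often higher in the 4th than in the 5th instar. On both 4th instar arrays 117 of the 570 (20.5%) were at least 4-fold above the 5th instar array, where 3.7% of 34804 probes were, and 6 (1.05%) were at least 4-fold below it, where 0.71% were. The 3 CC-CA arrays took no part in choosing the probes. The 4th instar replicate 2, the 5th instar CC-CA and the salivary gland shared a slide. The top sequence above, fcaL-P50_pT_C02_RevCom, was at 3.19 and 3.48 in the 4th instar CC-CA and 0.66 in the 5th, and fcaL-P53_pT_L16_RevCom at 3.92, 4.34 and 1.04. The receptor DpHR was at -3.67 and -3.38 in the 4th instar and -6.95 in the 5th, and jhbp-an0128 at 2.39, 1.65 and -1.21.

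**Figure D5:**
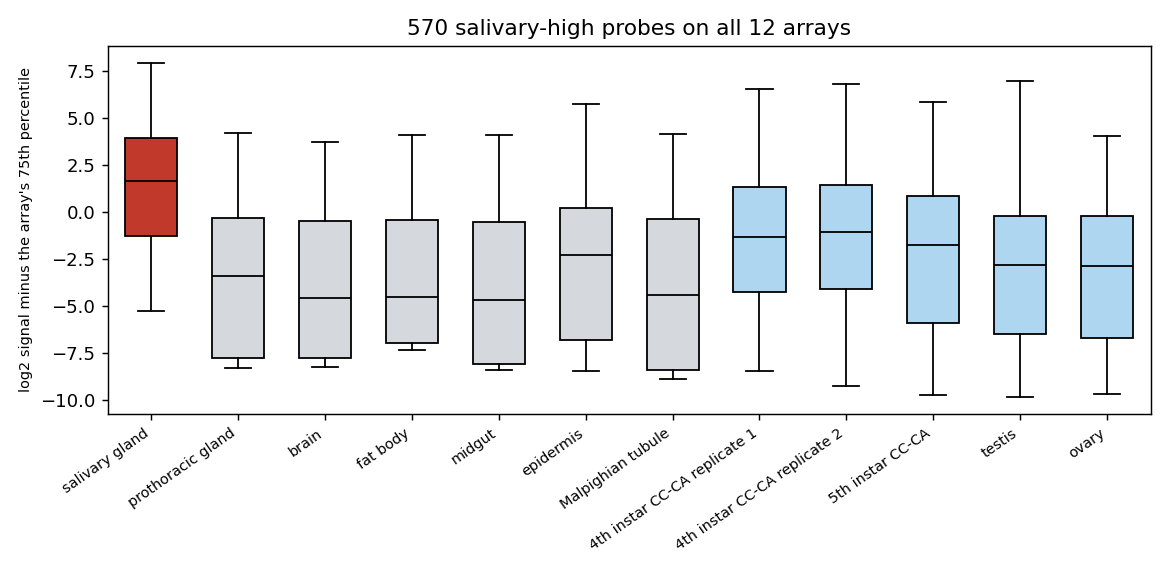
Boxes give the quartiles and median, and whiskers the lowest and highest, of the levels of the 570 salivary-high probes on each of the 12 arrays (log2 signal minus the 75th percentile of the array); the salivary gland array and the 6 arrays beside it chose the probes. The medians of the CC-CA arrays (-1.36, -1.06 and -1.77) lie above those of testis (-2.80) and ovary (-2.88). Over all probes used the CC-CA medians were -1.65, -1.70 and -1.83. The choice of probes itself set salivary gland (1.67) high and the 6 tissues low.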

How the data were processed

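Transcript levels were measured on a custom Agilent 1-colour array, 1 array a tissue. Per the labels' protocols, column-purified total RNA was amplified linearly and labelled with Cy3. Per the file headers, the deposited intensity is the processed signal of Agilent Feature Extraction 9.5.3.1 (version per the submitters' processing notes), background-subtracted and not normalised between arrays; dim values are surrogates, so differences among them may understate true ones. The deposited value table holds the authors' intensity on a linear scale, each column divided by a constant; its centring is unknown. The medians of its columns over gene probes ranged from 6.97 in fat body, through 7.05 (midgut), 7.58 (epidermis), 7.67 (brain), 8.47 (Malpighian tubule) and 8.99 (prothoracic gland), to 9.86 in salivary gland, and were 10.0, 10.2 and 10.6 for the CC-CA arrays, 5.39 for testis and 7.43 for ovary.

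For each array, log2 of the processed signal minus its 75th percentile over gene spots was taken. Outlier spots were left out, spots of a probe averaged, and 118 probes lacking a value on any of the 7 arrays dropped. With 1 array a tissue no p-value was computed, and precision is limited by the number of arrays. A fold against dim signals is given as "at least": a dim signal was raised to the detection limit of its array, that is the dimmest signal still well above background, unless it already exceeded this. A gene was represented by its probe brightest on average over the 7 arrays. Named in the text were BmorCPR33, jhbp-brp1649, every named gene 4-fold above or below all 6 tissues, in each list the 4 members furthest above and furthest below the median of the 6, all juvenile hormone binding proteins, and at most 2 unnamed sequences a direction; others were chosen after their values were seen, as were the neighbours in the run of cuticular genes. The members and gene lists were chosen with earlier results of these data known.

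Gene names are those of the array design; 186 of 346 were found in the RefSeq table of assembly ASM3026992v2, used for gene order only. Planned lists by gene description were not run, since names for those sequences were not used here. Alternatives were other scalings, the value table, normexp background correction (offset 50, on the median rather than the mean spot signal, which the files do not hold), a floor, filters, thresholds and leaving out each tissue. Python 3.11.15, pandas 2.3.3, numpy 2.4.6, matplotlib 3.10.9, R 4.3.3 and limma 3.58.1 were used.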

Additional observations from a re-analysis of the deposited data

Results flagged for a closer look

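Some named salivary-high genes also gave signal on arrays outside the comparison, at least 4-fold above all 6 other tissues of the comparison. BmorCPR90 was at 4.36 on the array of 4th instar CC-CA replicate 1 and -0.91 on that of replicate 2, both above its -2.67 in salivary gland, so the replicates were far apart. BmorCPR14 was at -2.82 on CC-CA replicate 1 and not well above background on replicate 2, at -7.25. BmorCPR26 was at -1.82 and -1.75 on the same arrays, below its 2.35 in salivary gland. The transcript jhbp-brp1649 was at -1.01 and -0.72 there and at -0.76 in testis, against 3.94 in salivary gland. These levels were not tested, since the salivary gland and testis had 1 array each.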

How the results depend on the processing

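No paired analysis was possible because each tissue had 1 array and no test was made. All 11 named salivary-high genes kept a positive margin under the 6 scaling, background, floor and probe alternatives. Margins under log2 2 were BmorCPH5 1.84 (median over its probes), BmorCPR14 0.93 and BmorCPR90 1.87 (normexp), and JHE-r1 1.20 (floor), 0.18 (normexp) and 1.91 (percentile over detected probes). Against 570 salivary-high and 276 salivary-low probes, the value table gave 1372 and 138, quantile normalisation 778 and 181, normexp 438 and 112, and the floor 516 and 241; all 570 were among the 1372. A limit of log2 1 gave 2081 and 909, log2 3 gave 204 and 114, probes detected on all 7 arrays gave 266 and 133, and the 11 other arrays in place of 6 gave 331 high. Leaving out epidermis gave 894 high, Malpighian tubule 418 low and midgut 424 low; leaving out each tissue in turn gave 612 to 894 high and 315 to 424 low. Midgut alone, on the same slide, gave 3930 and 4932 probes and 43 and 47 named genes. Named salivary-high genes numbered 7 at log2 3 and 0 among probes detected on all 7 arrays, since none of the 11 was detected on all 7. Named salivary-low genes, 0 here, numbered 5 at log2 1, 3 with the percentile over detected probes, 1 with the median over probes, 1 without brain, 1 without epidermis, 1 without midgut and 2 without prothoracic gland.

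The share of higher probes among those 4-fold apart follows for Malpighian tubule, brain, epidermis, fat body, midgut and prothoracic gland, in this order. It was 61.6%, 69.7%, 65.2%, 68.9%, 67.2% and 58.5% with the value table, and 39.0%, 27.3%, 22.7%, 33.2%, 38.1% and 38.6% with the percentile over detected probes. With quantile normalisation it was 48.4%, 49.8%, 46.4%, 51.5%, 50.1% and 50.5%, and with probes detected on all 7 arrays 47.0%, 54.8%, 53.0%, 47.3%, 51.6% and 48.3%. A limit of log2 1 gave 45.8%, 46.6%, 46.1%, 50.8%, 48.9% and 47.9%, and log2 3 gave 41.8%, 32.1%, 15.6%, 27.9%, 35.6% and 40.9%. The floor gave 47.2%, 40.0%, 32.5%, 37.9%, 42.6% and 44.4%, and normexp 44.1%, 44.9%, 31.7%, 33%, 41.3% and 47.9%. The direction turned for all 6 tissues with the value table, for fat body, midgut and prothoracic gland with quantile normalisation, for brain, epidermis and midgut with probes detected on all 7 arrays, and for fat body at log2 1. The cause was not tested. Over the same alternatives, members 4-fold below the median of the 6 tissues numbered 1 to 3 for RR-1 genes (3 here), 0 to 2 for glycine-rich genes (2 here) and 1 to 2 for juvenile hormone degradation (2 here). Detection limits bound the folds of dim genes: that of fat body, the highest of the 7, where salivary gland was higher, and that of salivary gland where it was lower.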
